A study of Mus musculus with 6 samples.

Results

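The clustered protocadherins were followed across the brainstem libraries of 3 wild type (WT) and 3 Rag1-/- mice. Members were chosen by gene symbol alone, as every row named Pcdha, Pcdhb or Pcdhg followed by an isoform number or code, and the family was taken up with earlier results of these data known. This gave 58 of the 18058 genes in the table, with 14 in the alpha cluster, 22 in the beta cluster and 22 in the gamma cluster. The WT mice were C57BL/6J, and the other mice carried the Rag1 tm1Mom null allele (B6.129S7-Rag1 tm1Mom/J). The RAG1 protein is needed to join the gene segments of antigen receptors, and mice without it make no mature T or B cells but keep natural killer and myeloid cells. All mice were 1 month old and untreated, and RNA came from snap-frozen brainstem, with 3 independent mice per genotype. Brainstem is bulk tissue, so fewer cells of a type and less RNA per cell cannot be told apart.

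Clustered protocadherins are cadherin-like adhesion proteins of the neuronal surface. In the alpha and gamma clusters each isoform has its own first exon, which encodes the extracellular, transmembrane and proximal cytoplasmic parts, and is spliced to constant exons that all isoforms of that cluster use, whereas each beta isoform is encoded by a single exon. A neuron expresses a small set of the alternate isoforms, chosen by promoter, and the proteins bind only matching isoforms on other cells, which lets a neuron tell its own branches from those of others. The C-type isoforms (Pcdhac1, Pcdhac2, Pcdhgc3, Pcdhgc4 and Pcdhgc5) lie at the ends of the alpha and gamma clusters and are regulated differently from the alternate ones.

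Depth, estimated from the steps among low values, was between 31600000 and 46400000 reads per library, so that 3 reads stand for 0.0646 to 0.0950 CPM, the deposited unit of reads scaled to library size. Rag1 itself had 0.236, 0.388 and 0.115 CPM in WT, and the libraries labelled Rag1-/- had 2.60, 4.02 and 2.90 CPM. It was therefore higher where the label names a null allele, and every direction given here rests on the labels. Xist reached 172 and 177 CPM in the first and second WT replicates (WT replicates 1 and 2) and 2.93 CPM or less in the other 4 libraries, while the Y-linked Ddx3y was at 0.283 CPM or less in those 2 WT libraries and at 45.2 CPM or more in the other 4. WT replicate 3 was thus the only WT library with the sex chromosome transcripts of the Rag1-/- libraries. Neuron markers were present in every library, with sums over 10 genes of 5975 to 6674 CPM in WT and 5835 to 6644 CPM in Rag1-/-.

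All 58 members lie on chromosome 18 (mm10, plus strand). The alpha cluster spans 36930285 to 37187660, the beta cluster 37264998 to 37521419 and the gamma cluster 37661945 to 37841872. Of the members, 56 were matched to GENCODE transcripts, and Pcdha10 and Pcdhgb8 were not. Each matched alpha isoform had 4 exons, of which the 3 constant exons gave 2860 shared bases, between 52.75% and 54.94% of the transcript. Each matched gamma isoform also had 4 exons, with 2109 to 2118 shared bases, between 41.7% and 47.23% of the transcript. Beta isoforms had 1 exon and 0 shared bases.

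Reads from constant exons cannot be assigned to one isoform by their sequence. Of the stretches of 50 bases in an isoform, a median of 60.91% in the alpha cluster, 46.29% in the gamma cluster and 4.58% in the beta cluster also occurred in another member. Divided by the level of 1 read, 86.1% of the values of genes outside the family that stood for at most 3000 reads were whole numbers within 0.1 read. This held for 22.9% of the alpha values, 20.5% of the beta values and 19.0% of the gamma values in that range, where arbitrary values would give 20%. Most values of single isoforms therefore hold fractions of reads, in all of the clusters, and how the authors divided reads between rows is not given in the sources used here. Sums over a cluster do not depend on how reads were divided among its own members.

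The gamma cluster held most of the family's signal. Its isoforms summed to 483, 462 and 552 CPM in WT replicates 1 to 3 and to 451, 506 and 462 CPM in Rag1-/- replicates 1 to 3, which was 69.98% of the family. The alpha isoforms summed to 114, 110 and 106 CPM in WT and to 101, 100 and 103 CPM in Rag1-/-, or 15.2% of the family. The beta isoforms summed to 114, 109 and 111 CPM in WT and to 87.9, 98.0 and 96.7 CPM in Rag1-/-, or 14.8%. In the alpha and beta clusters every Rag1-/- library lay below every WT library, and in the gamma cluster the groups overlapped. The alpha groups overlapped after median-of-ratios rescaling (log2 difference -0.072, exact permutation p = 0.2) and quantile normalization (-0.057, exact p = 0.3), while the beta groups stayed apart under both. These sums stood on the equivalent of 3161 to 5089 reads for alpha, 3042 to 5047 reads for beta and 15608 to 21443 reads for gamma, so counting error was at most 1.81% of a sum.

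**Figure D1:**
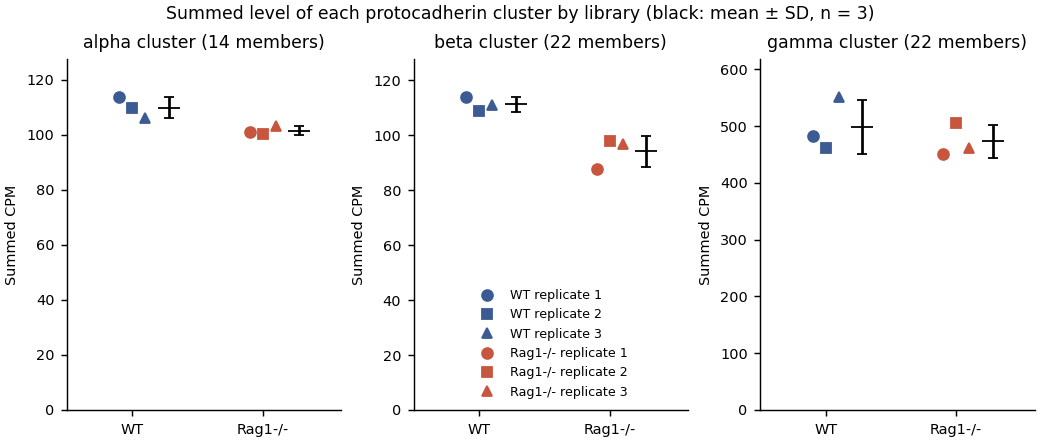
Summed CPM of the alpha, beta and gamma clusters (y axis from 0) in the 3 WT and 3 Rag1-/- libraries, with symbols for replicates and a black bar for the mean ± SD (n = 3). The groups are separate for alpha and beta, while for gamma WT replicate 3 at 552 CPM stands above the other libraries and Rag1-/- replicate 2 at 506 CPM lies above WT replicates 1 and 2.

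On the log2 scale of summed CPM, the beta cluster had the largest difference of the 3 clusters. Its sum was 111 ± 2.70 CPM in WT and 94.2 ± 5.53 CPM in Rag1-/- (SD, n = 3), 15.4% lower, a log2 difference of -0.24 (standard error, SE, 0.054, exact two-sided permutation p = 0.1). The alpha sum was 110 ± 3.89 CPM in WT and 102 ± 1.59 CPM in Rag1-/- (SD, n = 3), 7.61% lower, a log2 difference of -0.11 (SE 0.032, exact p = 0.1). An exact p of 0.1 is the smallest that 3 libraries against 3 can give, so neither could have passed 0.05. The gamma sum was 499 ± 47.1 CPM in WT and 473 ± 29.4 CPM in Rag1-/- (SD, n = 3), a log2 difference of -0.074 (SE 0.093, exact p = 0.5), which is within the spread between libraries. The order depends on the measure. The mean of log2(CPM + 0.1) over isoforms gives low isoforms as much weight as high ones. It differed by -0.36 for alpha with overlapping groups (exact permutation p = 0.2). For beta it differed by -0.28 with no overlap (exact p = 0.1), and for gamma by -0.10 (exact p = 0.3). The alpha value takes in its lowest isoforms, Pcdha4 (log2 fold change -0.90), Pcdha6 (-2.26), Pcdha7 (0.48) and Pcdha8 (-0.93). The single values of Pcdha4, Pcdha6 and Pcdha7 are uncertain, as described below, and so is this change of order.

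Ratios between clusters do not depend on the scaling of a library. The ratio of beta to alpha was 1.00, 0.992 and 1.05 in WT and 0.869, 0.979 and 0.936 in Rag1-/-, with no overlap between the groups (exact permutation p = 0.1). The alpha sum here leaves out 3 rows, described below, that share first exons with alpha isoforms. With those rows added to alpha, the groups of this ratio overlapped. The ratio of beta to gamma was 0.236, 0.235 and 0.201 in WT and 0.195, 0.194 and 0.209 in Rag1-/- (exact permutation p = 0.2), and here WT replicate 3 lay among the Rag1-/- libraries. That library and the 3 Rag1-/- libraries share the low Xist level. Against WT replicate 3 alone, the Rag1-/- mean was lower by a log2 difference of -0.24 for beta, -0.064 for alpha and -0.22 for gamma, values of 1 WT library with no test. For every member, genotype and Xist level can be told apart only through WT replicate 3.

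Levels of single isoforms were compared per kb of transcript. Alpha and gamma lengths include the constant exons, whose reads were divided in a way that is not given, and beta lengths include none. Levels per kb are therefore not like for like between clusters. Pcdhgc3 was the highest member at 31.7 ± 2.97 CPM per kb (SD over 6 libraries), with a lowest library of 29.0 CPM per kb, above every library of any other member. Pcdhgc4 followed at 10.6 ± 0.69 CPM per kb and Pcdhac2 at 9.99 ± 0.36 CPM per kb, and these did not differ beyond their ranges, 9.57 to 11.4 and 9.33 to 10.4 CPM per kb. Pcdhgc5 was at 5.77 ± 0.88 CPM per kb, and its range of 4.51 to 6.44 CPM per kb overlapped that of Pcdhgb6, the highest alternate isoform, at 5.37 CPM per kb. Pcdhac1, the remaining C-type isoform, was at 0.825 CPM per kb. The C-type isoforms together made up 41.4% of the family's CPM.

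**Figure D2:**
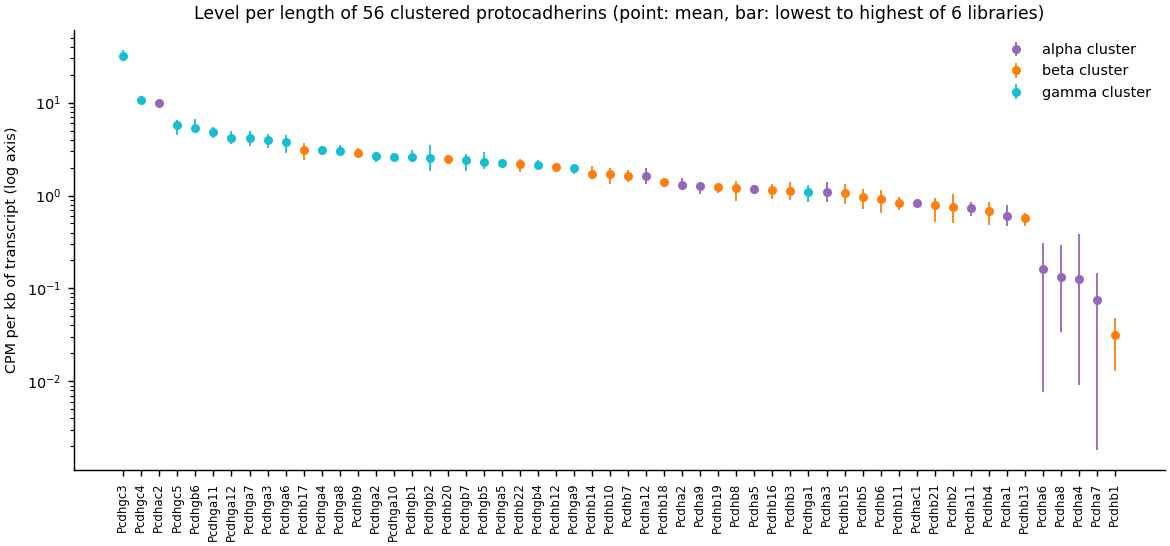
CPM per kb of transcript (log axis) of the 56 members with a matched transcript, from highest to lowest, where the point is the mean and the bar runs from the lowest to the highest of 6 libraries. Pcdhgc3, Pcdhgc4 and Pcdhac2 head the order, gamma isoforms fill most of the upper part, and Pcdha6, Pcdha8, Pcdha4, Pcdha7 and Pcdhb1 form the low end. Lengths of alpha and gamma isoforms include the constant exons.

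The clusters differed in how evenly the signal was spread. Pcdhac2 alone held a mean of 51.3% of the alpha sum (48.6% to 53.5% over libraries), and Pcdhgc3 held 30.5% of the gamma sum (28.3% to 32.0%). In the beta cluster the highest isoform, Pcdhb17, held 9.90% (8.17% to 10.7%). The median beta isoform was at 1.17 CPM per kb against 0.825 for alpha and 2.99 for gamma, where only alpha and gamma lengths include constant exons. The coefficient of variation over the 6 libraries had a median of 17.7% in the alpha cluster, 14.2% in the beta cluster and 10.8% in the gamma cluster, and it reached 113% in the alpha cluster (Pcdha4). Pcdhb1 was nearly silent, at 0.0318 to 0.118 CPM, a level of 1 to 5 reads, and it was under the filter on low values used for the test.

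**Figure D3:**
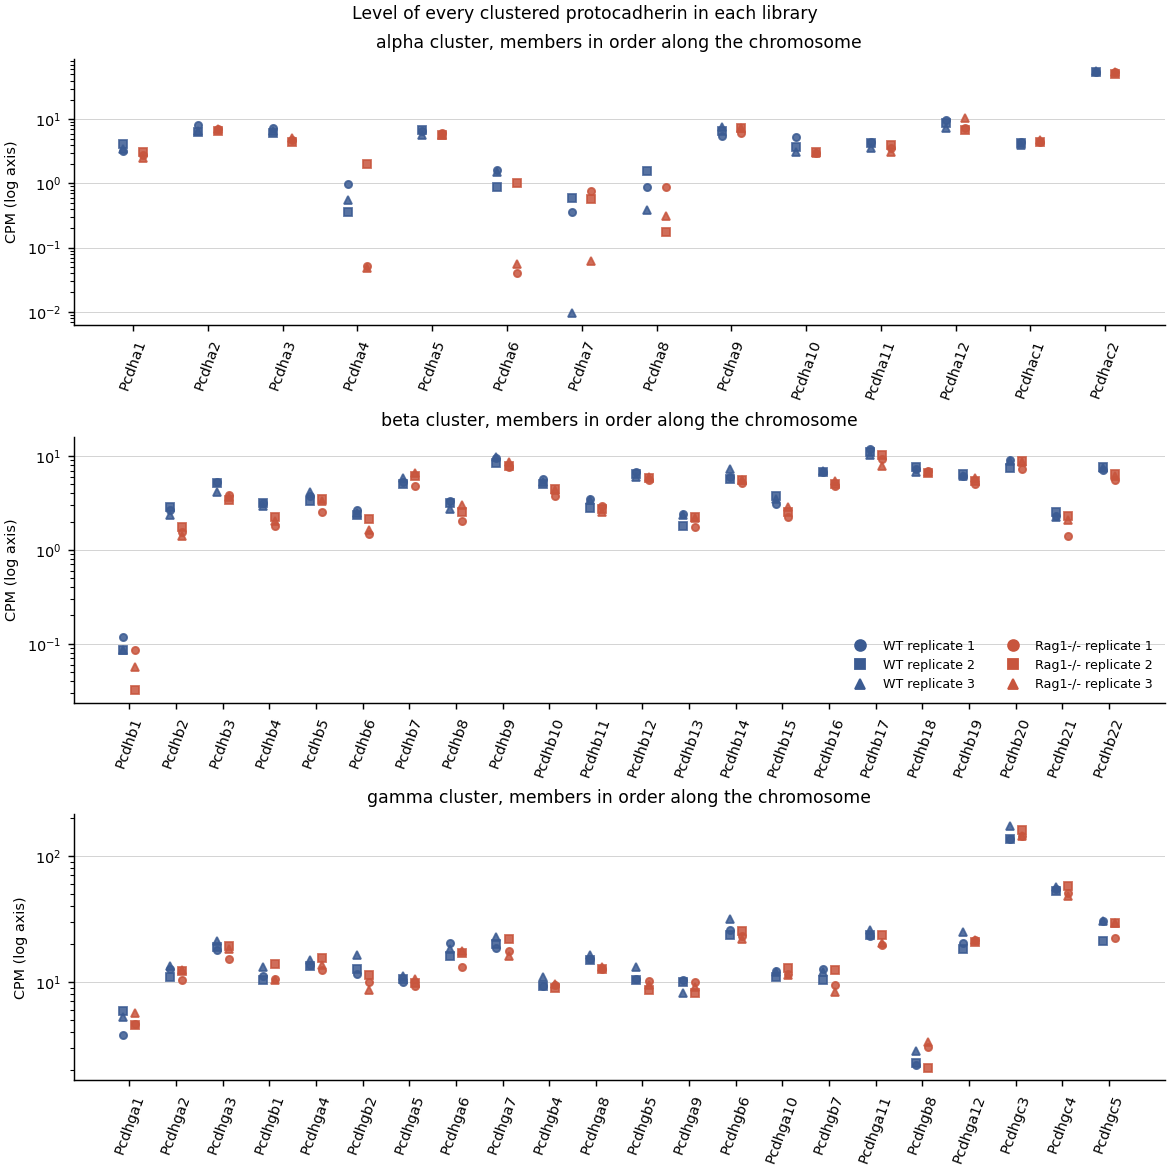
CPM (log axis) of each of the 58 members in each library, in order along the chromosome within each cluster. Most members lie within a narrow band across libraries, while Pcdha4, Pcdha6, Pcdha7 and Pcdha8 spread widely and Pcdhb1 sits under 0.2 CPM.

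The question for single isoforms was whether any differed between the genotypes. For this, log2(CPM + 0.1) values of 16762 genes, those averaging 0.1 CPM or more, entered limma-trend, and fold changes are on that scale, which understates the change of low transcripts. Of all genes tested 8 had an adjusted p under 0.05, 0.0477% of the total, and 0 of the 57 members tested were among them (smallest limma-trend adjusted p = 0.238, for Pcdhb2). At an unadjusted p of at most 0.05, 16 members were lower and 0 were higher in Rag1-/-, where over all genes 9.29% were lower and 2.27% were higher. Fold changes below 0 were found for 46 of 57 members, against 67.7% of all genes, and the median fold change was -0.19 for the members against -0.051 for all genes. The groups did not overlap for 18 members that were lower and 1 that was higher, where over all genes this held for 14.4% and 3.98%.

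The background in this comparison depends on scaling. With rescaling by median-of-ratios, 4.38% of all genes were lower and 4.70% higher at an unadjusted p of at most 0.05. With quantile normalization 3.82% were lower and 5.10% higher. The share of all genes with a fold change below 0 went from 67.7% to 53.3% and 49.1%, respectively. Both scalings align the libraries on the bulk of the genes, so they largely remove an excess of lower genes by construction. The members that were lower numbered 3 alpha, 8 beta and 2 gamma isoforms after rescaling, and 2, 8 and 2 after quantile normalization.

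**Figure D4:**
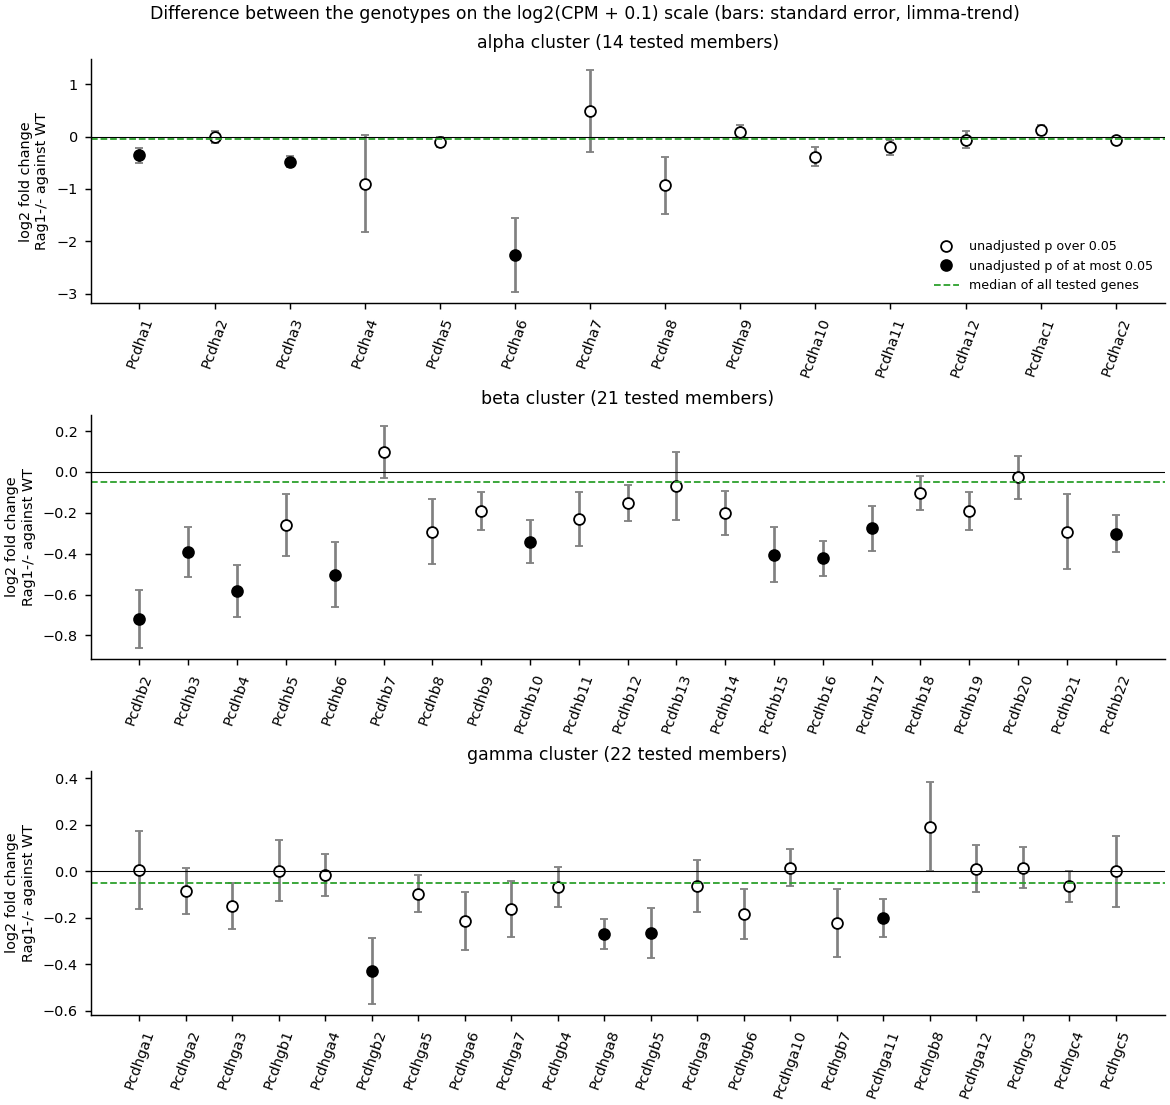
Log2 fold change of Rag1-/- against WT (y axis, log2(CPM + 0.1) scale) for the 57 tested members in order along each cluster, with the standard error as bars, filled points for an unadjusted p of 0.05 or less and a dashed line at the median of all tested genes. In the beta cluster 20 of 21 points lie below 0, and in the alpha cluster the widest bars belong to Pcdha4, Pcdha6, Pcdha7 and Pcdha8.

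Of the 21 beta isoforms tested, 9 were lower in Rag1-/- at an unadjusted p of at most 0.05 (9.29% over all genes), 0 were higher, and the other 12 did not reach that threshold. No overlap between the groups, with Rag1-/- lower, was found for 11 (14.4% over all genes), and the median fold change was -0.28. No beta isoform passed the adjusted threshold. Pcdhb7 was the only beta isoform with a fold change above 0, at 0.099, and the count below 0 was 20 as deposited (67.7% over all genes), 19 after median-of-ratios rescaling (53.3%) and 18 after quantile normalization (49.1%). The 9 isoforms were Pcdhb2, Pcdhb3, Pcdhb4, Pcdhb6, Pcdhb10, Pcdhb15, Pcdhb16, Pcdhb17 and Pcdhb22, with 4 among the first 6 tested along the cluster (median fold change -0.45) and 5 among the remaining 15 (median -0.23), a split described without a test. Leaving out 1 library at a time gave 7 to 11 lower beta isoforms, where 5.18% to 9.73% of all genes were lower. A term for high Xist in the fit gave 5, where 12.3% of all genes were lower.

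Pcdhb2 was at 2.68, 2.86 and 2.37 CPM in WT and at 1.54, 1.74 and 1.41 CPM in Rag1-/-. The groups were well separated, with the highest Rag1-/- library under the lowest WT library, and the log2 fold change was -0.72 (SE 0.14, limma-trend adjusted p = 0.238). Pcdhb4 was at 3.13, 3.15 and 2.91 CPM in WT and at 1.79, 2.24 and 2.03 CPM in Rag1-/-, again with no overlap and a log2 fold change of -0.58 (SE 0.13, limma-trend adjusted p = 0.268). Pcdhb16 was at 6.74, 6.78 and 6.96 CPM in WT and at 4.77, 5.08 and 5.37 CPM in Rag1-/-. Its 3 WT values were nearly equal and all above the Rag1-/- values, with a log2 fold change of -0.42 (SE 0.087, limma-trend adjusted p = 0.251).

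Pcdhb6, one of the lowest beta isoforms, was at 2.66, 2.36 and 2.46 CPM in WT and at 1.49, 2.14 and 1.62 CPM in Rag1-/-, with no overlap and a log2 fold change of -0.50 (SE 0.16, limma-trend adjusted p = 0.355). Pcdhb17, the highest beta isoform, was at 12.02, 11.1 and 10.2 CPM in WT and at 9.40, 10.3 and 7.90 CPM in Rag1-/-, where Rag1-/- replicate 2 reached the lowest WT library (log2 fold change -0.28, equal to the beta median, limma-trend adjusted p = 0.403). Pcdhb9 was at 9.61, 8.35 and 9.90 CPM in WT and at 7.67, 7.94 and 8.70 CPM in Rag1-/-, with overlapping groups and a log2 fold change of -0.19 (limma-trend adjusted p = 0.466). All beta values are read from single-exon genes, so constant exons play no part in them, although up to 11.99% of the 50-base stretches of a beta isoform occur in another member.

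In the alpha cluster 3 of 14 isoforms were lower at an unadjusted p of at most 0.05 (9.29% over all genes) and 0 were higher (2.27%). A fold change below 0 was found for 11 of the 14 (67.7% over all genes), or 10 after median-of-ratios rescaling (53.3%) and 9 after quantile normalization (49.1%). The 12 alternate isoforms summed to 54.2, 50.2 and 46.0 CPM in WT and to 42.6, 45.2 and 44.7 CPM in Rag1-/-. The groups did not overlap, WT replicate 3 lay closest to the Rag1-/- libraries, and the log2 difference was -0.18 (SE 0.073, exact permutation p = 0.1). The count of 3 includes Pcdha6, whose single value is uncertain, as described below. The count also rests on single libraries: it was 6 without WT replicate 3 (9.31% of all genes lower) and 1 without Rag1-/- replicate 3 (7.53%).

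Pcdha3 was at 7.31, 6.21 and 6.55 CPM in WT and at 4.72, 4.50 and 5.08 CPM in Rag1-/-. All Rag1-/- libraries were lower, with a log2 fold change of -0.48 (SE 0.10, limma-trend adjusted p = 0.251). Pcdha1, the first isoform of the cluster, was at 3.19, 4.10 and 3.45 CPM in WT and at 2.77, 3.07 and 2.46 CPM in Rag1-/-, also with no overlap (log2 fold change -0.36, limma-trend adjusted p = 0.394). Pcdha12, the highest alternate alpha isoform, was at 9.70, 8.75 and 7.20 CPM in WT and at 7.42, 6.92 and 10.5 CPM in Rag1-/-. Here Rag1-/- replicate 3 was the highest of all 6 libraries, the groups overlapped, and the log2 fold change of -0.059 turned to 0.0047 after quantile normalization.

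Pcdha4, Pcdha6 and Pcdha7 were low and uneven. Pcdha6 was at 1.605, 0.882 and 1.51 CPM in WT and at 0.0406, 1.02 and 0.0555 CPM in Rag1-/-. Rag1-/- replicates 1 and 3 were under the level of 3 reads while replicate 2 lay within the WT range, and the fitted log2 fold change of -2.26 (SE 0.71, limma-trend adjusted p = 0.354) depends on that replicate, without which it was -3.23 (adjusted p = 0.0357). Pcdha4 was at 0.965, 0.355 and 0.543 CPM in WT and at 0.0517, 2.04 and 0.0486 CPM in Rag1-/-, so that Rag1-/- replicate 2 held the highest value and the other Rag1-/- libraries the lowest. Pcdha7 was at 0.365, 0.586 and 0.00959 CPM in WT and at 0.773, 0.571 and 0.0623 CPM in Rag1-/-, where WT replicate 3 was under the level of 1 read.

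Each of these 3 isoforms shares its first exon with another row of the table. Gm37013, Gm38666 and Gm38667 start 41, 125 and 122 bases before Pcdha4, Pcdha6 and Pcdha7, respectively, end at the last base of the gamma cluster, and have Pcdha4-g, Pcdha6-g and Pcdha7-g as RefSeq synonyms. Their symbols put them outside the family, and they were examined after the values of the isoforms had been seen. Gm37013 was at 10.8, 10.9 and 9.28 CPM in WT and at 8.40, 7.76 and 7.21 CPM in Rag1-/-, above Pcdha4 in every library. Gm38666 was at 8.03, 6.18 and 7.47 CPM in WT and at 6.42, 5.09 and 7.66 CPM in Rag1-/-, and Gm38667 was at 7.96, 5.90 and 7.51 CPM in WT and at 4.25, 4.90 and 5.47 CPM in Rag1-/-. How reads of a shared first exon were divided between the rows is not given in the sources used here, so the single values of Pcdha4, Pcdha6 and Pcdha7 are uncertain.

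Summed with its overlapping row, each isoform gave a value set mostly by that row. Pcdha4 with Gm37013 was at 11.7, 11.2 and 9.82 CPM in WT and at 8.45, 9.80 and 7.26 CPM in Rag1-/-, with a coefficient of variation over 6 libraries of 17.2% where Gm37013 alone had 16.9%. Pcdha6 with Gm38666 was at 9.64, 7.06 and 8.98 CPM in WT and at 6.46, 6.11 and 7.71 CPM in Rag1-/-, with 18.4% where Gm38666 alone had 16.3%. The log2 difference of this sum was -0.33, with overlapping groups (exact permutation p = 0.2), beside the -2.26 of Pcdha6. Pcdha7 with Gm38667 was at 8.33, 6.49 and 7.52 CPM in WT and at 5.03, 5.47 and 5.53 CPM in Rag1-/-. Its coefficient of variation was 20.4%, where Gm38667 alone had 24.4%. The log2 difference of this sum was -0.47 (exact permutation p = 0.1), where the fold change of Pcdha7 alone was 0.48.

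**Figure D5:**
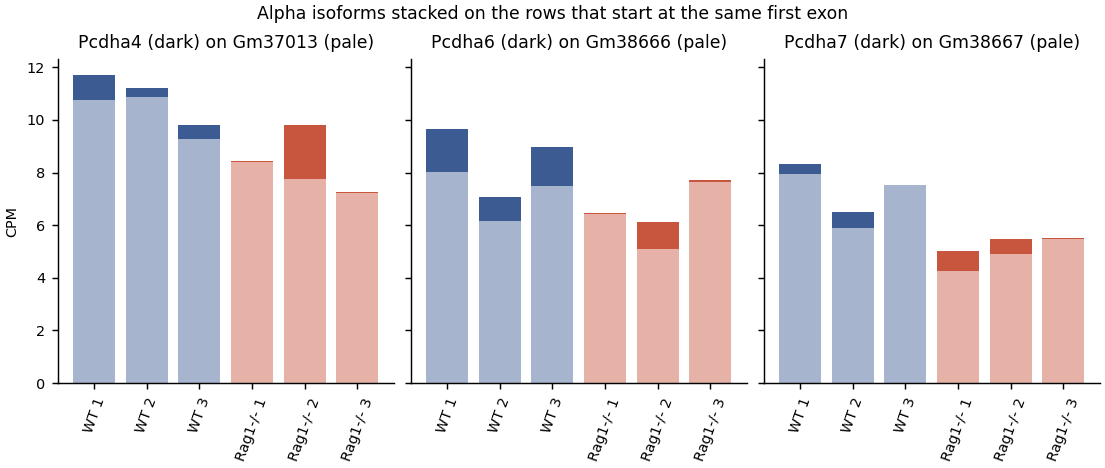
CPM (stacked bars from 0) of Pcdha4, Pcdha6 and Pcdha7 (dark) on Gm37013, Gm38666 and Gm38667 (pale), rows that start at the same first exon, in the 3 WT (blue) and 3 Rag1-/- (red) libraries. The isoform is the small part of each bar, at most 2.04 CPM. For Pcdha4 the height of the bar does not always follow the overlapping row. From Rag1-/- replicate 1 to replicate 2, Gm37013 falls from 8.40 to 7.76 CPM while the bar rises from 8.45 to 9.80 CPM.

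With the 3 overlapping rows added, the alpha sum was 135 ± 5.41 CPM in WT and 121 ± 2.87 CPM in Rag1-/- (SD, n = 3), a log2 difference of -0.16 (exact permutation p = 0.1), against -0.11 without them. The added rows also run across the gamma constant exons, so part of their reads may come from gamma isoforms.

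Of 22 gamma isoforms 4 were lower at an unadjusted p of at most 0.05 (9.29% over all genes) and 0 were higher (2.27%). A fold change below 0 was found for 15 of the 22, a share near the 67.7% of all genes, or 14 after median-of-ratios rescaling (53.3%) or quantile normalization (49.1%). The median fold change was -0.077, near the -0.051 of all genes. The 12 gamma A isoforms summed to 178, 174 and 195 CPM in WT and to 158, 178 and 169 CPM in Rag1-/- (exact permutation p = 0.2), and the 7 gamma B isoforms to 83.5, 78.7 and 99.5 CPM in WT and to 75.9, 83.1 and 71.5 CPM in Rag1-/- (exact permutation p = 0.2). WT replicate 3 was the highest library in both sums, and the groups overlapped.

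Pcdhga8 was at 15.2, 14.9 and 16.4 CPM in WT and at 12.6, 12.7 and 13.1 CPM in Rag1-/-. The groups did not overlap, and the log2 fold change was -0.27 (SE 0.064, limma-trend adjusted p = 0.312). Pcdhgb2 was at 11.6, 12.7 and 16.3 CPM in WT and at 9.97, 11.4 and 8.60 CPM in Rag1-/-, also with no overlap and with WT replicate 3 well above the rest (log2 fold change -0.43, limma-trend adjusted p = 0.362). Pcdhga11 was at 23.1, 23.5 and 26.0 CPM in WT and at 19.5, 23.4 and 20.3 CPM in Rag1-/-, where Rag1-/- replicate 2 reached the WT range (log2 fold change -0.20, limma-trend adjusted p = 0.406).

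Pcdhga1 and Pcdhgb8 were the lowest gamma isoforms. Pcdhga1 was at 3.82, 5.90 and 5.30 CPM in WT and at 4.64, 4.58 and 5.69 CPM in Rag1-/-, and Pcdhgb8 was at 2.18, 2.26 and 2.82 CPM in WT and at 3.06, 2.07 and 3.32 CPM in Rag1-/-. In both the groups overlapped, with log2 fold changes of 0.0055 (SE 0.17) and 0.19 (SE 0.19). For Pcdhga1 the mean CPM was 5.01 in WT and 4.97 in Rag1-/-, so its sign differs between the log2 scale and the means. The count of 4 lower gamma isoforms was 2 without WT replicate 3 (9.31% of all genes lower), 1 without Rag1-/- replicate 3 (7.53%) and 6 without either WT replicate 2 (9.73%) or Rag1-/- replicate 2 (8.23%). With a term for high Xist added to the fit, it was 7, where 12.3% of all genes were lower, and 21 of 22 gamma fold changes were below 0, where 62.6% of all genes were. The count of lower alpha isoforms was then 2.

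The C-type isoforms, which are expressed more broadly among neurons than the alternate ones, summed to 281, 269 and 318 CPM in WT and to 276, 301 and 280 CPM in Rag1-/-. The groups overlapped, and the log2 difference was -0.016 (SE 0.082, exact permutation p = 0.8). None of the 5 had an unadjusted limma-trend p of 0.05 or less, where the smallest adjusted p was 0.542. Pcdhgc3 was at 137, 136 and 171 CPM in WT and at 144, 159 and 144 CPM in Rag1-/-, with a log2 fold change of 0.017 (SE 0.089). WT replicate 3 was the highest library and WT replicates 1 and 2 the lowest.

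Pcdhgc4, an isoform required for the survival of some neurons, was at 54.0, 52.4 and 56.3 CPM in WT and at 50.7, 57.3 and 48.0 CPM in Rag1-/-, with overlapping groups. Pcdhgc5 was at 30.3, 21.2 and 30.1 CPM in WT and at 22.4, 29.6 and 29.3 CPM in Rag1-/-, with 1 low library in each group. Pcdhac1 was at 4.35, 4.27 and 3.95 CPM in WT and at 4.50, 4.39 and 4.76 CPM in Rag1-/-. It was the only member whose Rag1-/- values all lay above the WT values, with a log2 fold change of 0.12 (SE 0.097, limma-trend adjusted p = 0.657).

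Pcdhac2, which serotonin neurons use for the tiling of their axons, was at 55.3, 55.2 and 56.2 CPM in WT and at 54.1, 50.6 and 53.8 CPM in Rag1-/-. It was the steadiest alpha isoform, with a coefficient of variation of 3.62%, and its groups did not overlap with a log2 fold change of -0.073 (SE 0.044, limma-trend adjusted p = 0.542). Markers of serotonin neurons were uneven between the same libraries, some more than others. Tph2, the enzyme of serotonin synthesis in the brain, was at 30.7, 29.6 and 10.0 CPM in WT and at 58.0, 22.7 and 12.3 CPM in Rag1-/-. Slc6a4, the serotonin transporter, was at 24.1, 21.8 and 7.96 CPM in WT and at 40.4, 17.1 and 10.1 CPM in Rag1-/-, and Fev, a transcription factor of these neurons, was between 0.655 and 3.67 CPM. Ddc, a decarboxylase that other monoamine neurons also use, and Slc18a2, the vesicular monoamine transporter, varied less, at 33.3 to 48.3 CPM and 29.3 to 48.3 CPM. Of the 5 serotonin neuron markers 0 had an unadjusted limma-trend p of 0.05 or less.

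Genes that act on the choice of isoforms were taken as a list of 18, comprising CTCF, cohesin and its loaders and releasers, DNA methyltransferases and chromatin regulators. Of these, 3 were lower and 0 higher at an unadjusted p of at most 0.05, where 9.29% of all genes were lower. A fold change below 0 was found for 17 of them, where 67.7% of all genes had one, and the median was -0.079 against -0.051 for all genes. This count and those of the other gene lists were made with the deposited scaling only, and the share over all genes depends on scaling. Nipbl, the cohesin loader, was at 45.02, 45.8 and 44.6 CPM in WT and at 41.1, 41.7 and 39.8 CPM in Rag1-/-, with no overlap and a log2 fold change of -0.14 (limma-trend adjusted p = 0.340). Kdm1a, a histone demethylase, and Ctcf, which binds the isoform promoters and enhancers, were the other two, with log2 fold changes of -0.13 and -0.12. Of 18 partners and processing enzymes, such as the gamma-secretase subunits and the WAVE complex, 0 were lower and 1 was higher (2.27% over all genes). This was the kinase gene Fyn, at 113, 112 and 124 CPM in WT and 139, 138 and 133 CPM in Rag1-/- (log2 fold change 0.23, limma-trend adjusted p = 0.268).

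Of 13 nonclustered protocadherins and relatives, 2 were lower and 0 higher at an unadjusted p of at most 0.05 by limma-trend (9.29% and 2.27% over all genes), Pcdh19 with a log2 fold change of -0.21 and Pcdh8 with -0.22, and the groups overlapped for both. A fold change below 0 was found for 11 of the 13 (67.7% over all genes), with a median of -0.084 against -0.051 for all genes. Of 15 classical cadherins and catenins 1 was lower, Ctnnd1 with -0.13, and 10 had a fold change below 0. Relative to the summed nonclustered protocadherins, the beta sum was lower by a log2 difference of -0.19 with no overlap (exact permutation p = 0.1), the alpha sum by -0.060 (exact p = 0.2) and the gamma sum by -0.021 (exact p = 0.9). Of the 33 other genes within 500 kb of the members, without the 3 rows that overlap the alpha isoforms, 32 were tested, with 0 lower, 1 higher (Rell2) and a median fold change of -0.0088.

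Among the marker lists of other cells, the oligodendrocyte list differed throughout. All 8 oligodendrocyte markers, among them Mog, Mobp and Cnp, were higher in Rag1-/- at an unadjusted p of at most 0.05 (smallest limma-trend adjusted p = 0.258), with no overlap, where over all genes 2.27% were higher at that threshold and 3.98% were higher with no overlap. They summed to 20553 to 23770 CPM in WT and to 26467 to 27703 CPM in Rag1-/-. Of 10 neuron markers 0 were lower and 0 higher, and relative to their sum the beta cluster had a log2 difference of -0.25 with overlapping groups (exact permutation p = 0.2). The other lists are to be read against 9.29% lower and 2.27% higher over all genes: of 8 astrocyte markers 1 was higher (Aqp4), of 6 microglia markers 0 differed at that threshold, of 7 choroid plexus markers 2 were lower (Clic6 and Otx2), and of 6 endothelial markers 1 was lower (Cdh5). Choroid plexus markers summed to 485 to 1228 CPM in WT and to 551 to 630 CPM in Rag1-/-. The part of these markers in the lower beta and alpha values was not tested.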

How the data were processed

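RNA from the brainstems of 3 WT and 3 Rag1-/- mice was sequenced. The authors aligned reads to mm10 (STAR 2.5.3a per the labels), counted them on RefSeq genes and deposited CPM values, in which 0.0001 had been added to each value. After removal of this offset, 86.1% of values of genes outside the family up to 3000 reads were whole reads within 0.1 read, but values of most family members were not, so the table was not treated as counts and no count test was run. Columns were matched to samples by name. From the CPM values, log2(CPM + 0.1) was computed and genes averaging 0.1 CPM or more entered limma-trend (limma 3.58.1, R 4.3.3) with Benjamini-Hochberg adjustment, and the fit was checked on simulated data. Summed CPM was compared with exact two-sided permutation tests (numpy 2.4.6). Read equivalents and counting errors rest on the estimated depth and cover counting error only.

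Coordinates are those of the deposited table, with the end 1 base before the deposited stop. Exons and 50-base stretches came from GENCODE transcripts of the same build, clipped to the deposited span. Members were chosen by symbol, and members and lists were chosen with earlier results of these data known, so their counts are descriptions. Isoforms described singly are the C-type isoforms, the 2 highest and 2 lowest tested members of each cluster and the 3 with the smallest p in each, and up to 3 genes per other list. The alternatives were other pseudocounts, filters, scalings and variance models, a replicate block, a term for Xist and leaving out each library. The sums relative to other lists and the alpha sum with the overlapping rows were added after seeing the data.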

Additional observations from a re-analysis of the deposited data

How the results depend on the processing

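The count of all genes with an adjusted p under 0.05 was 8 and the least stable value: it was 4 with a pseudocount of 0.01, with no filter or with a minimum mean of 1 CPM, 5 with quantile normalization, 2 without the limma trend, 134 with a term for Xist, and 2 to 24 when 1 library was left out (24 without WT replicate 3). Replicate numbers did not pair the libraries, since same-numbered deviations correlated at 0.093, -0.22 and -0.018; the replicate block gave 3 genes, the same count of 16 lower members, and for the beta sum an exact p of 0.25, the smallest it can give. Members higher at an unadjusted p of at most 0.05 numbered 1 with the Xist term (Pcdha7) and 0 to 1 with 1 library left out (Pcdhgc3 without WT replicate 3, Pcdhgb8 without Rag1-/- replicate 2), and those lower 12 to 19. With 1 library left out, the median fold change ranged from -0.31 (without WT replicate 3) to -0.11 for alpha, which was -0.033 with the Xist term, -0.083 with quantile normalization, -0.088 with the minimum of 1 CPM and -0.094 with a pseudocount of 1, and from -0.34 to -0.16 (without Rag1-/- replicate 1) for beta, which was -0.19 with quantile normalization; for gamma (-0.077) it was -0.21 with the Xist term, -0.030 with quantile normalization, -0.036 with median-of-ratios rescaling and -0.13 (without WT replicate 2) to -0.046 (without WT replicate 3) with 1 library left out, also moving past 1.5 times without WT replicate 1 (-0.12), Rag1-/- replicate 2 (-0.12) or Rag1-/- replicate 1 (-0.050). The beta sum kept its direction and its lack of overlap under both rescalings (-0.20 and -0.17). Without each library in turn the beta sum differed by -0.27 to -0.19. Leaving out a library cannot make separate groups overlap or reverse their direction, so these fits show only the size of the difference. The alpha groups overlapped after median-of-ratios rescaling (-0.072) and quantile normalization (-0.057). They also overlapped with the mean of log2(CPM + 0.1) over isoforms, which gave -0.36 for alpha and -0.28 for beta. With the libraries of low Xist only, the alpha sum differed by -0.064 and the gamma sum by -0.22, and the gamma sum ranged from -0.13 to 0.00057 (without WT replicate 3).

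Of 327 values of the 22 members described singly, 307 kept their direction and side of the threshold, 1 gained significance (Pcdha6 without Rag1-/- replicate 2) and 19, of 6 members, changed sign. With the Xist term, Pcdhgc3 was at -0.20, Pcdhgc5 at -0.16, Pcdha12 at 0.17, Pcdhgb8 at -0.029 and Pcdhga1 at -0.098. Pcdhgc5 was at -9.3e-05 with a pseudocount of 1 and Pcdha12 at 0.0047 with quantile normalization. With 1 library left out, the range was -0.041 to 0.13 for Pcdhgc3, -0.17 to 0.13 for Pcdhgc5, -0.24 to 0.057 for Pcdha12, -0.31 to 1.23 for Pcdha7 and -0.17 to 0.13 for Pcdhga1. The causes were not tested. Pcdhb1, at 1 to 5 reads, was under the filter on low values and was tested only without it.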
